A study of Rattus norvegicus with 30 samples.

Results

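The 5 genes Slc1a2, Slc1a3, Glul, Aqp4 and Gja1 were read from the 26404 genes of the deposited count tables by their Ensembl identifiers, ENSRNOG00000005479, ENSRNOG00000016163, ENSRNOG00000049560, ENSRNOG00000016043 and ENSRNOG00000000805. The rule that chose them used their known roles in astrocytes and no measured value. The tables carry no gene names, so the pairing of name and identifier was taken as given, and the tissues could not be checked here against their marker genes. Adult male Sprague-Dawley rats received a traumatic brain injury (TBI) by lateral fluid-percussion injury (FPI) or a sham operation, and mRNA was sequenced 3 months later. Lateral FPI drives a brief fluid pulse against the intact dura over the left parietal lobe. The 5 sham-operated rats (rats 1 to 5) and the 5 rats with TBI (rats 6 to 10) all had the craniectomy and the same anaesthetic mixture, which held pentobarbital, chloral hydrate, magnesium sulphate, propylene glycol and ethanol, and only the pulse set the groups apart. Each rat gave a library from the perilesional cortex, the thalamus and the hippocampus, the last dissected as the dentate gyrus with part of CA3, so that 30 libraries from separate animals within each group were compared.

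Astrocytes clear glutamate from the synaptic cleft through the sodium-coupled transporters encoded by Slc1a2 (GLT-1, which some axon terminals also carry) and Slc1a3 (GLAST). Glutamine synthetase, encoded by Glul, joins the glutamate taken up to ammonia and returns it to neurons as glutamine. Aqp4 encodes aquaporin-4, the water channel concentrated on astrocyte endfeet around vessels, and Gja1 encodes the connexin that serves as the main gap junction protein that couples astrocytes into a network. Loss of glutamate uptake, swelling and changed coupling of astrocytes have long been studied in injured and epileptic tissue.

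Library totals lay between 21992859 and 31799879 counts. The smallest count of any of the 5 genes in a library was 1191, for which counting error alone gives a coefficient of variation of 2.90%, whereas the coefficient of variation between rats of a group ran from 3.60% to 36.6%. All 5 genes passed the filter on low counts in every brain area, and no other gene had the same counts as any of them. Some hippocampal libraries stood apart from the others. In rats 4 and 5, the 10 most counted genes took 44.1% and 40.9% of the hippocampal counts, against 9.95% to 16.4% in the other hippocampal libraries. This share also differed with treatment in the cortex, at 20.3% to 29.6% in sham-operated rats and 14.1% to 23.8% after TBI. Thalamic libraries ranged from 6.32% to 9.13% and from 7.53% to 10.5%. The hippocampal libraries of rats 3 and 8 went against their labels. Of the genes that differed between these rats by at least 2 on the log2 scale, in the same direction in cortex and thalamus, and by at least 1 in the hippocampus, 13 of 13 had the opposite sign in the hippocampus. Of these genes, 7 were themselves called between TBI and sham in cortex or thalamus, so leaving out rats 3 and 8 was chosen in part on the outcome. Among the 6 that were not called, 6 had the opposite sign. Over the other 24 pairs of a sham-operated rat and a rat with TBI, the signs were opposite in 3 of 226 cases of such a gene in a pair. These pairs share rats, and a gene is counted again in each pair. Among the cases of genes not called, 1 of 28 was opposite. The hippocampal comparisons of the 5 genes are therefore given with and without rats 3 and 8. The study set aside a pair of sham hippocampal libraries for low alignment without naming the rats and kept every hippocampal library with TBI, that of rat 8 included. All 5 sham hippocampal libraries are used here, except where rats are said to be left out.

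In the perilesional cortex, the genes for the water channel, the gap junction protein and the transporter GLAST rose after TBI, Aqp4 by 2.60-fold, Gja1 by 1.43-fold and Slc1a3 by 1.20-fold. Slc1a2 and Glul did not pass the test there, and their mean levels were lower after TBI. In the thalamus Aqp4 rose by 2.39-fold, and the other 4 genes did not pass the test. The calls of cortical Slc1a3 and thalamic Aqp4 were lost in 7 and 6 of 10 fits with a single rat left out. In the hippocampus with all rats none of the 5 genes passed. Levels are given as CPM, counts scaled to library size with edgeR's TMM factors of each brain area. A gene is called where edgeR's quasi-likelihood test gave an adjusted p under 0.05 (Benjamini-Hochberg, over all genes tested in the brain area). The tissue was taken whole, and levels are relative to library size. A change in the number or share of astrocytes and a change in RNA per astrocyte cannot be told apart in any of these values.

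The count of genes called is read against the background of each brain area. In the cortex 3 of the 5 genes rose and 0 fell, while 14.2% of the 17185 genes tested rose, 11.6% fell and 25.8% were called in either direction. In the thalamus 1 of the 5 rose, and 3.77% of the 16605 genes tested rose and 1.85% fell (5.62% called in either direction). In the hippocampus 0 of the 5 and 0 of 16963 genes (0%) were called by edgeR, with a smallest adjusted p of any gene of 0.480. At an unadjusted p under 0.05 the hippocampus had 1432 genes (8.44%), of which Aqp4 was the only 1 of the 5, and DESeq2 called 41 hippocampal genes and none of the 5. The median log2 fold change of the 5 genes was 0.26 in the cortex, 0.20 in the thalamus and 0.06 in the hippocampus, beside -0.01, -0.00 and -0.01 over all genes tested.

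**Figure D1:**
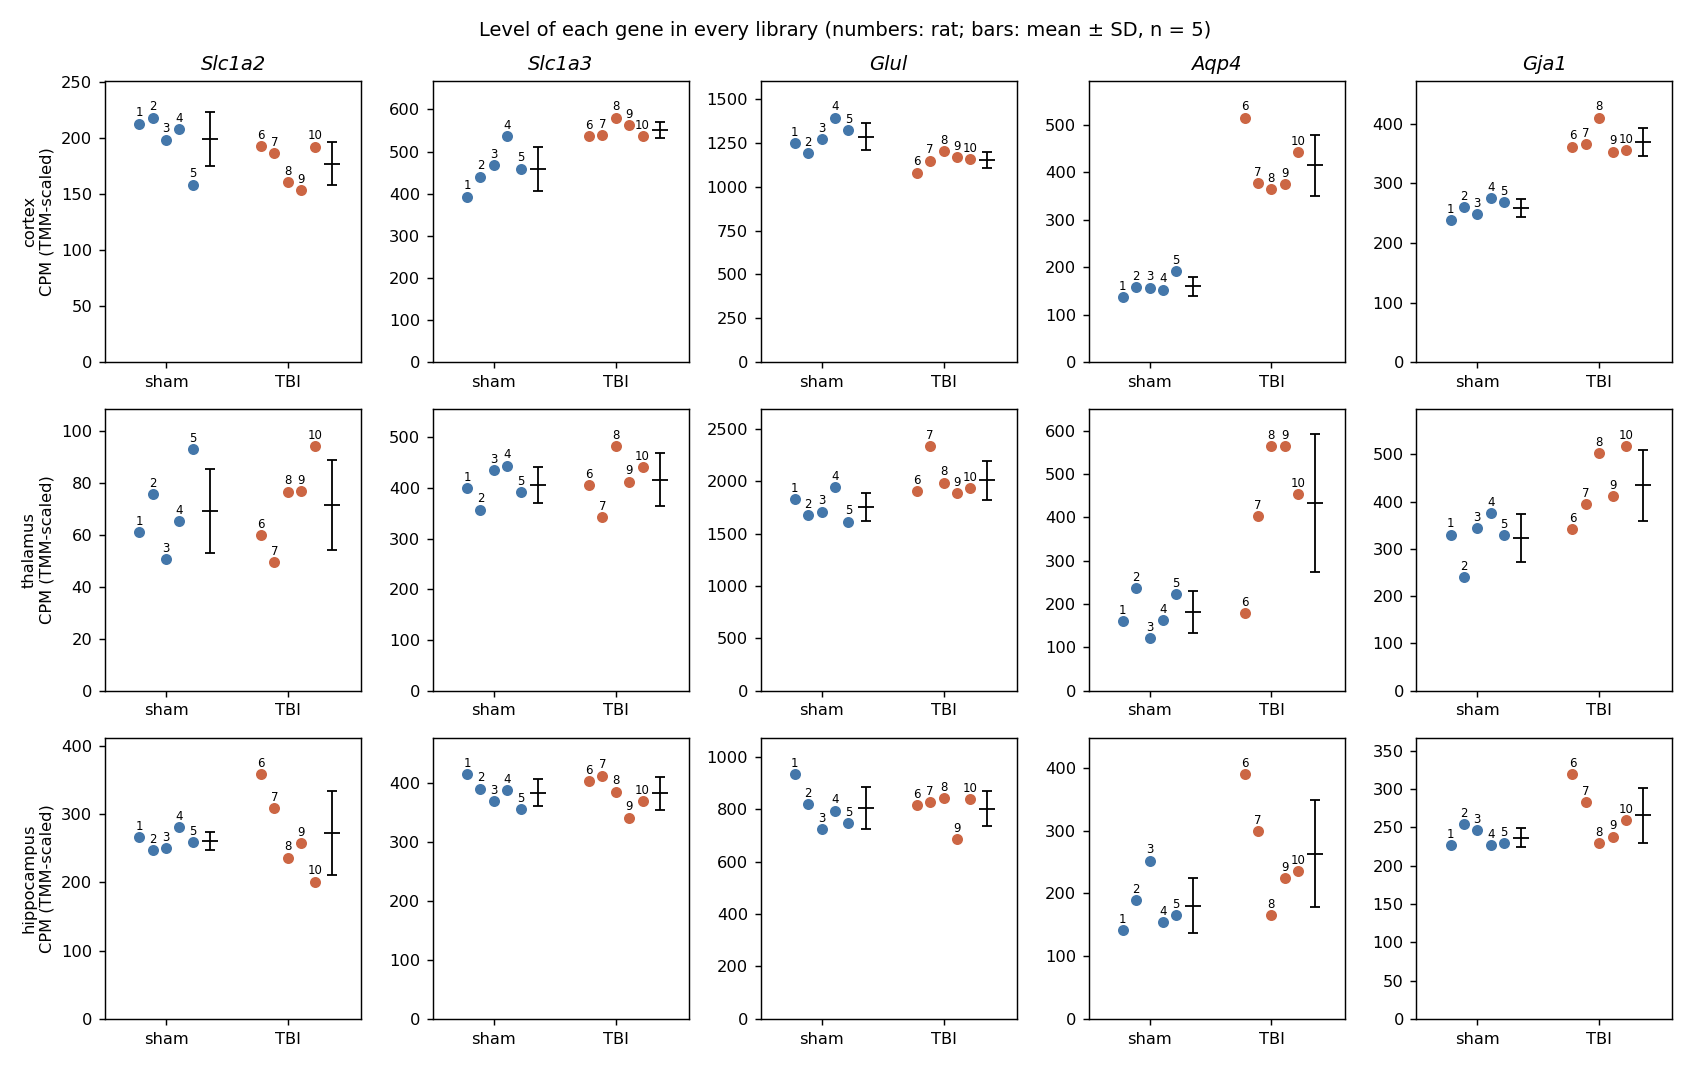
Level of each gene in every library, with CPM after TMM scaling on the vertical axis from 0, sham-operated rats in blue, rats with TBI in orange, the rat's number above each point and the mean ± SD (n = 5) as a bar. Aqp4 and Gja1 in the cortex are the panels in which the groups do not overlap, and in the thalamus rat 6 sits at 179 CPM of Aqp4 among the sham-operated rats.

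Aqp4, the endfoot water channel, had the largest fold change of the 5 genes in every brain area. In the cortex the sham-operated rats 1 to 5 had 138, 157, 157, 153 and 193 CPM, and the rats with TBI, 6 to 10, had 515, 377, 364, 374 and 443 CPM. Every rat with TBI lay above every sham-operated rat, an arrangement found for 10.2% of all cortical genes with TBI higher (18.1% in either direction). Apart from Aqp4 and Gja1 in the cortex, the groups of all rats overlapped for each of the 5 genes in each brain area, where 5.4% of thalamic genes (2.75% with TBI higher) and 0.984% of hippocampal genes (0.519% with TBI higher) did not overlap. The means were 160 ± 20.1 CPM (SD, n = 5) and 415 ± 64.2 CPM (SD, n = 5), and the log2 fold change was 1.38 (standard error 0.11, 95% interval 1.14 to 1.62), with an adjusted p of 1.37e-06 in edgeR's quasi-likelihood test. Of the genes tested in the cortex, 97.9% had a lower log2 fold change than Aqp4.

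In the thalamus Aqp4 was at 161, 236, 121, 164 and 223 CPM in sham-operated rats 1 to 5 and at 179, 403, 564, 565 and 455 CPM in rats 6 to 10. Rats 7 to 10 lay above every sham-operated rat, and rat 6 lay within the sham range. The means were 181 ± 47.8 CPM (SD, n = 5) and 433 ± 158 CPM (SD, n = 5), and the log2 fold change was 1.26 (standard error 0.27, 95% interval 0.67 to 1.85, edgeR adjusted p = 0.0256). This call was near the threshold. It was lost when any of rats 3, 4, 5, 7, 8 or 10 was left out, with log2 fold changes of 1.14 to 1.34 and edgeR adjusted p of 0.0516 to 0.0790, and it was held without rat 6, where the log2 fold change was 1.46 (edgeR adjusted p = 0.000493). DESeq2 on all 10 thalamic libraries gave 1.25 (adjusted p = 0.000386). The number of all thalamic genes called also depended on single rats. It was 934 with all rats, 0 without rat 3, 5, 7 or 8, 67 without rat 10, 468 without rat 4, 550 without rat 9, 703 without rat 1, 1047 without rat 2 and 2421 without rat 6.

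In the hippocampus Aqp4 was at 141, 189, 252, 154 and 165 CPM in sham-operated rats 1 to 5 and at 389, 300, 165, 224 and 236 CPM in rats 6 to 10. The highest sham value was that of rat 3 and the lowest TBI value that of rat 8, the rats whose hippocampal libraries went against their labels. With all rats, the means of 180 ± 43.8 CPM (SD, n = 5) and 263 ± 85.3 CPM (SD, n = 5) gave a log2 fold change of 0.54 (standard error 0.24, 95% interval 0.02 to 1.07), which edgeR did not call (adjusted p = 0.578). Without rats 3 and 8, the sham range was 137 to 183 CPM and the TBI range 217 to 378 CPM (each n = 4), so that the groups no longer overlapped. That arrangement was found for 5.28% of the 16960 genes with TBI higher and for 7.68% in either direction. Leaving out rats 3 and 8 took away the highest sham and the lowest TBI value of Aqp4, which by itself moves the groups apart. The choice was also made in part on the outcome. The log2 fold change was then 0.82 (standard error 0.16, 95% interval 0.47 to 1.17, edgeR adjusted p = 0.0233), a 1.77-fold rise, beside 1.45% of genes called higher and 1.55% (263 genes) called in either direction in that fit. Without rats 3, 4, 5 and 8, which left 2 sham-operated rats and 4 rats with TBI, it was 0.80 (edgeR adjusted p = 0.182), and without rats 4 and 5 alone 0.44 (edgeR adjusted p = 0.858).

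The same rat was not high in every brain area. Rat 6 had the highest Aqp4 of all rats in the cortex (515 CPM) and in the hippocampus (389 CPM) and the lowest of the rats with TBI in the thalamus (179 CPM). Rat 8 had the lowest Aqp4 of the rats with TBI in the cortex (364 CPM) and was level with rat 9 at the top in the thalamus, and its hippocampal library is left out of this account because it went against its label.

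Gja1, the gap junction gene, rose in the cortex. The sham-operated rats 1 to 5 had 238, 260, 248, 275 and 269 CPM and the rats with TBI had 362, 366, 410, 353 and 355 CPM, with no overlap. The means of 258 ± 14.9 CPM (SD, n = 5) and 369 ± 23.4 CPM (SD, n = 5) gave a log2 fold change of 0.52 (standard error 0.07, 95% interval 0.36 to 0.67, edgeR adjusted p = 0.000191), and 87.9% of cortical genes had a lower one. In the thalamus Gja1 was at 330, 240, 344, 375 and 329 CPM in sham-operated rats and at 343, 395, 503, 411 and 518 CPM in rats 6 to 10. As with Aqp4, rats 7 to 10 lay above every sham-operated rat and rat 6 did not. The thalamic log2 fold change of 0.42 (standard error 0.14, 95% interval 0.12 to 0.73) was not called (edgeR adjusted p = 0.0949). Of 10 fits with a single rat left out it passed in 1, without rat 6, at 0.50 (edgeR adjusted p = 0.0279). That fit called 2421 thalamic genes, against 934 with all rats. A single edgeR fit of all brain areas, in which 3457 thalamic genes were called, gave Gja1 0.40 (adjusted p = 0.00743). In the hippocampus the values were 226, 254, 247, 227 and 230 CPM in sham-operated rats and 319, 283, 230, 238 and 259 CPM after TBI, a log2 fold change of 0.17 (95% interval -0.03 to 0.36, edgeR adjusted p = 0.646). Without rats 3 and 8 it was 0.23 (95% interval 0.01 to 0.45, edgeR adjusted p = 0.380).

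Slc1a3, the GLAST transporter, was at 393, 441, 468, 537 and 460 CPM in the cortex of sham-operated rats 1 to 5 and at 536, 539, 580, 562 and 537 CPM in rats 6 to 10. The sham-operated rat 4 reached the level of the rats with TBI, of which 3 lay above every sham-operated rat. The spread was narrower after TBI, with a mean of 551 ± 19.8 CPM (SD, n = 5) against 460 ± 52.2 CPM (SD, n = 5) in sham-operated rats. The log2 fold change of 0.26 (standard error 0.08, 95% interval 0.08 to 0.44) passed the test narrowly (edgeR adjusted p = 0.0338). The call was lost when any of rats 1, 2, 3, 7, 8, 9 or 10 was left out, with edgeR adjusted p up to 0.0847 and log2 fold changes of 0.22 to 0.27, and was kept under DESeq2 (adjusted p = 0.0131). In the thalamus Slc1a3 ranged from 357 to 444 CPM in sham-operated rats and from 342 to 483 CPM after TBI, a log2 fold change of 0.04 (95% interval -0.20 to 0.27, edgeR adjusted p = 0.863). In the hippocampus the ranges were 355 to 415 CPM and 342 to 413 CPM, with a log2 fold change of -0.0047 (95% interval -0.17 to 0.16, edgeR adjusted p = 0.991), and without rats 3 and 8 it was -0.021 (95% interval -0.23 to 0.19, edgeR adjusted p = 0.957).

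Slc1a2, the GLT-1 transporter, was not called in any brain area. In the cortex the sham-operated rats had 213, 218, 199, 208 and 158 CPM and the rats with TBI had 193, 187, 161, 153 and 192 CPM, so that only rat 9 lay below every sham-operated rat. The means were 199 ± 24.0 CPM (SD, n = 5) and 177 ± 18.9 CPM (SD, n = 5), and the log2 fold change of -0.17 had a 95% interval of -0.38 to 0.04 (edgeR adjusted p = 0.224). In the thalamus it lay between 50.6 and 93.0 CPM in sham-operated rats and between 49.5 and 94.1 CPM after TBI (log2 fold change 0.05, 95% interval -0.36 to 0.45, edgeR adjusted p = 0.906). In the hippocampus the sham-operated rats were close together, from 248 to 281 CPM, and the rats with TBI ran from 201 to 358 CPM. There the log2 fold change was 0.06 (95% interval -0.20 to 0.32, edgeR adjusted p = 0.918), and without rats 3 and 8 it was 0.096 (95% interval -0.21 to 0.40, edgeR adjusted p = 0.840).

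Glul, the glutamine synthetase gene, was the most counted of the 5 genes in every library. In the cortex it stood at 1247, 1192, 1272, 1392 and 1320 CPM in sham-operated rats and at 1079, 1148, 1204, 1169 and 1155 CPM in rats 6 to 10, and all rats with TBI but rat 8 lay below every sham-operated rat. The log2 fold change of -0.16 (standard error 0.08, 95% interval -0.32 to 0.00) was not called by edgeR (adjusted p = 0.136), while DESeq2 called it at -0.17 (adjusted p = 0.0371). With plain library totals in place of TMM factors, the median log2 fold change of all cortical genes moved by 0.22 to 0.21, and Glul and Slc1a2 then stood at 0.055 and 0.060. Both genes thus lay below the median of all genes under either scaling. In the thalamus Glul ran from 1615 to 1946 CPM in sham-operated rats and from 1884 to 2337 CPM after TBI, a log2 fold change of 0.20 (95% interval -0.02 to 0.41, edgeR adjusted p = 0.249). In the hippocampus the ranges were 724 to 933 CPM and 685 to 842 CPM (log2 fold change -0.0044, 95% interval -0.19 to 0.18, edgeR adjusted p = 0.993). Without rats 3 and 8 the hippocampal value was -0.058 (95% interval -0.29 to 0.17, edgeR adjusted p = 0.875).

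**Figure D2:**
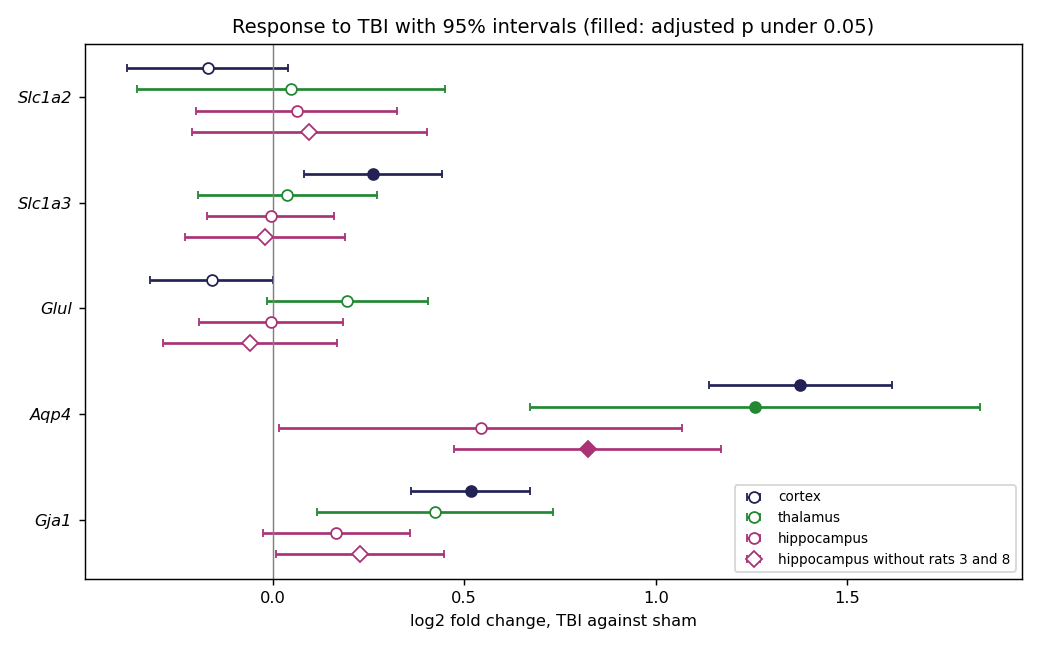
Log2 fold change of each gene, TBI against sham, by brain area with 95% intervals as bars; circles are fits of all 10 rats, diamonds the hippocampus without rats 3 and 8, and filled symbols have an edgeR adjusted p under 0.05. Aqp4 is farthest to the right in each brain area, at 1.38 in the cortex, 1.26 in the thalamus and 0.54 in the hippocampus with all rats.

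Differences between brain areas in the response of the 5 genes were tested as interactions in a single edgeR fit of all 30 libraries. None of the 5 genes passed in any of the 3 pairs of brain areas, where 0.582% (cortex against thalamus), 0.449% (cortex against hippocampus) and 0.322% (thalamus against hippocampus) of 18040 genes were called. The response of Aqp4 in the cortex exceeded that in the hippocampus by 0.80 on the log2 scale (95% interval 0.12 to 1.49, edgeR adjusted p = 0.283), and that in the thalamus exceeded the hippocampus by 0.68 (95% interval -0.01 to 1.36, edgeR adjusted p = 0.335). With single rats left out of every brain area the latter ranged from 0.41 to 1.06 (edgeR adjusted p 0.0127 to 0.702), and it passed only without rat 6, in a fit that called 1402 genes (7.76%) against 58 with all rats. Cortex and thalamus differed by 0.13 in the response of Aqp4, with a 95% interval of -0.56 to 0.81 (edgeR adjusted p = 0.971). Without the hippocampal libraries of rats 3 and 8 the response of Aqp4 differed between cortex and hippocampus by 0.53 (edgeR adjusted p = 0.652) and between thalamus and hippocampus by 0.40 (edgeR adjusted p = 0.699), and none of the 5 genes passed. For Gja1 the cortex exceeded the hippocampus by 0.32 (95% interval 0.02 to 0.62, edgeR adjusted p = 0.339), and by 0.26 without those libraries (edgeR adjusted p = 0.646).

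Glul and Slc1a2 had cortical and thalamic log2 fold changes on opposite sides of 0, none of which edgeR called. With plain library totals in place of TMM factors both cortical values lay above 0, at 0.055 and 0.060. For Glul the difference of the log2 fold changes, cortex minus thalamus, was -0.36 (standard error 0.11, 95% interval -0.58 to -0.13). It did not pass adjustment over all genes in edgeR (adjusted p = 0.160) and did in DESeq2 (-0.37, adjusted p = 0.0363). For Slc1a2 and Slc1a3 the differences between cortex and thalamus were -0.21 and 0.22, with edgeR adjusted p of 0.871 and 0.573. Over the 8 alternatives other than leaving out single rats, the Glul difference ran from -0.37 to -0.16. That of Slc1a2 ran from -0.23 to -0.0069.

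Ratios of counts within a library do not depend on how libraries are scaled, and here only their shift between groups is read, since the genes differ in length. Of the 10 pairs of the 5 genes, which share genes and so are not independent, 8 did not overlap between groups in the cortex, 1 in the thalamus and, with all rats, 0 in the hippocampus. Over the ratios of every tested gene to each of the 5 genes, 40.1%, 5.35% and 0.691% did not overlap. In the cortex Aqp4 counts were 0.556 to 0.716 times those of Gja1 in sham-operated rats and 0.888 to 1.42 times after TBI. Within each cortical library, the water channel transcript was thus more abundant relative to the gap junction transcript after TBI. Slc1a3 counts were 0.315 to 0.386 times those of Glul in sham-operated rats and 0.464 to 0.497 times after TBI. Slc1a2 counts were 0.120 to 0.183 times those of Glul in sham-operated rats and 0.131 to 0.179 times after TBI, so this pair overlapped. As a background, the ratio to Glul did not overlap and was higher after TBI for 18.3% of cortical genes (20.2% in either direction), against 1.14% (8.06%) in the thalamus and 0.13% (0.283%) in the hippocampus. Without rats 3 and 8, 6 of the 10 pairs did not overlap in the hippocampus (each n = 4), beside 18.9% of the ratios of every tested gene. There Aqp4 counts were 0.625 to 0.744 times those of Gja1 in sham-operated rats and 0.909 to 1.22 times after TBI, and Glul counts were 4.35 to 6.59 times and 2.10 to 3.55 times those of Aqp4. Glul against Gja1 was apart by a narrow margin, at 3.232 to 4.12 and 2.56 to 3.229, and the groups of Slc1a3 against Glul overlapped. The ratio to Glul was apart and higher after TBI for 5.48% of genes in these libraries (5.93% in either direction). In the thalamus the pair without overlap was Slc1a3 against Gja1, at 1.18 to 1.49 in sham-operated rats and 0.852 to 1.18 after TBI, where the nearest rats of each group touched.

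**Figure D3:**
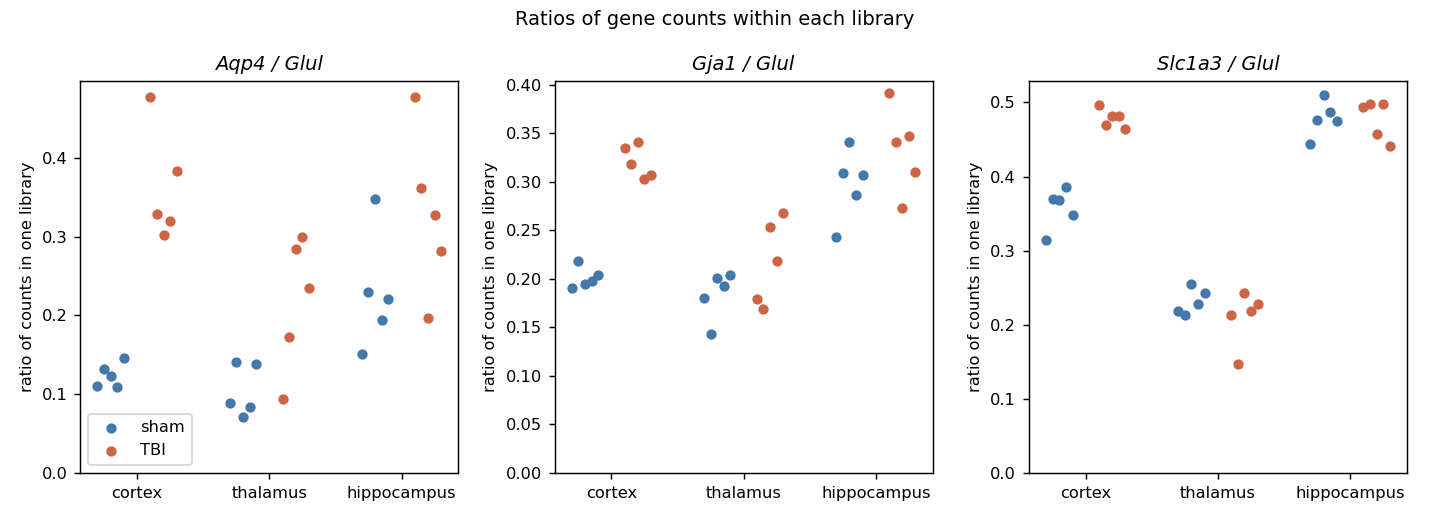
Ratio of the counts of Aqp4, Gja1 and Slc1a3 to those of Glul in each library (vertical axes from 0, no unit), by brain area, with sham-operated rats in blue and rats with TBI in orange. In the cortex the groups are apart in all 3 panels, for Slc1a3 at 0.315 to 0.386 against 0.464 to 0.497, and with all rats they overlap in the thalamus and hippocampus, while without rats 3 and 8 those of Aqp4 and Gja1 are apart in the hippocampus.

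In the sham-operated rats the transporters and Glul differed between brain areas, and Aqp4 and Gja1 did not pass the test in any pair with all rats and TMM factors. The comparison used TMM factors of all 30 libraries. The study gives another instrument and read length for the thalamus than for the other areas, while the labels give the same for all, so a difference of the thalamus from the other areas cannot be told apart from one of sequencing. Between brain areas 70.9% (cortex against thalamus), 45.2% (cortex against hippocampus) and 68.1% (thalamus against hippocampus) of 18040 genes were called, and 3, 2 and 3 of the 5 genes were, which is near that background. On this scale Slc1a2 was at 291 ± 15.2 CPM in the hippocampus, 203 ± 25.2 CPM in the cortex and 61.7 ± 15.7 CPM in the thalamus (SD, n = 5 each). The cortex was 3.30-fold above the thalamus (edgeR adjusted p = 1.35e-10), and the hippocampus was 4.71-fold above the thalamus (edgeR adjusted p = 5.35e-13). The hippocampus was 1.43-fold above the cortex with all rats (edgeR adjusted p = 0.00851), a log2 difference of cortex minus hippocampus of -0.52. Without the hippocampal libraries of rats 3, 4, 5 and 8, which left 2 sham-operated rats there, the difference was close to that, at -0.48, and was not called (edgeR adjusted p = 0.0944), and with plain library totals in place of TMM factors it was -0.32 (edgeR adjusted p = 0.184).

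Glul had another order, with 1562 ± 91.4 CPM in the thalamus, 1311 ± 81.1 CPM in the cortex and 897 ± 90.2 CPM in the hippocampus (SD, n = 5 each). Each neighbour in that order differed, the thalamus from the cortex by 1.19-fold (edgeR adjusted p = 0.00548) and the cortex from the hippocampus by 1.46-fold (edgeR adjusted p = 1.59e-06). Slc1a3 was at 469 ± 53.8 CPM in the cortex, 428 ± 24.7 CPM in the hippocampus and 361 ± 24.9 CPM in the thalamus (SD, n = 5 each). Its cortex and hippocampus did not differ beyond their spread (log2 difference 0.13, 95% interval -0.04 to 0.30, edgeR adjusted p = 0.207), and both exceeded the thalamus, by 1.30-fold (edgeR adjusted p = 0.000217) and 1.19-fold (edgeR adjusted p = 0.0109). The log2 difference of thalamus minus hippocampus, -0.25 with all rats, was -0.21 without rat 1 (edgeR adjusted p = 0.0503) and -0.17 without rat 2 (edgeR adjusted p = 0.117), so that the call was lost. The call between cortex and thalamus was lost with plain library totals in place of TMM factors (log2 difference 0.091, edgeR adjusted p = 0.652), where the difference of thalamus minus hippocampus was 0.23 (edgeR adjusted p = 0.240). Aqp4 was at 163 ± 19.6, 162 ± 46.4 and 201 ± 48.6 CPM and Gja1 at 263 ± 15.2, 287 ± 40.7 and 264 ± 13.7 CPM in cortex, thalamus and hippocampus (SD, n = 5 each). Without rat 2 Gja1 was called between thalamus and hippocampus (log2 difference 0.26, edgeR adjusted p = 0.0356). With plain library totals Gja1 was called between cortex and thalamus (-0.42, edgeR adjusted p = 0.0360) and between thalamus and hippocampus (0.59, edgeR adjusted p = 0.00340). Under that scaling the median difference of all genes moved by -0.29 for cortex against thalamus and by 0.48 for thalamus against hippocampus, so directions between brain areas are read relative to the other genes.

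**Figure D4:**
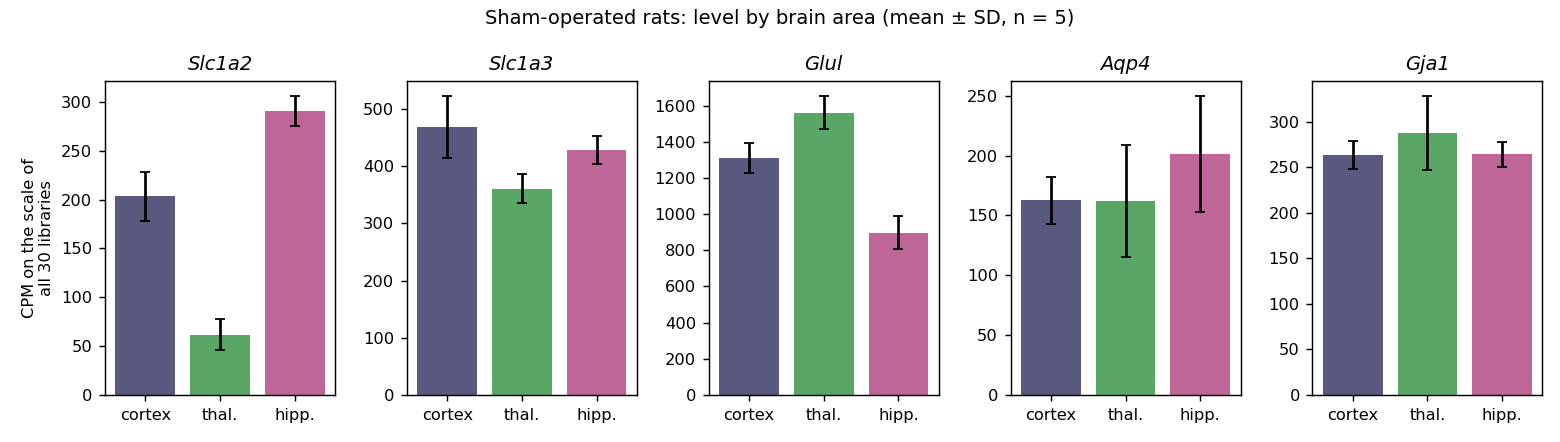
Mean level of each gene in the sham-operated rats by brain area (bars from 0, CPM on the scale of all 30 libraries, error bars SD, n = 5). Slc1a2 is lowest in the thalamus at 61.7 CPM and Glul lowest in the hippocampus at 897 CPM, whereas the bars of Gja1 lie between 263 and 287 CPM.

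The likeness of the genes across libraries was described by Pearson's r of log2 CPM centred on the mean of each brain area, over the 30 libraries, which share rats and depth and mix both treatments. Of the 10 pairs of the 5 genes, Aqp4 and Gja1 had the highest r over all libraries, 0.790, and 0.931, 0.639 and 0.927 over the 10 libraries of the cortex, thalamus and hippocampus. Against 16003 other genes, Gja1 ranked 503 by likeness to Aqp4 and Aqp4 ranked 300 by likeness to Gja1. Without the hippocampal libraries of rats 3 and 8, r of Aqp4 and Gja1 was 0.791 over 28 libraries and 0.951 over the 8 hippocampal ones. Slc1a3 and Gja1 had a lower r of 0.691, with Gja1 at rank 15 by likeness to Slc1a3 and Slc1a3 at rank 915 by likeness to Gja1. When the values were centred on each treatment group as well, Slc1a3 and Gja1 kept r = 0.642, Slc1a2 and Aqp4 had r = 0.515, Aqp4 and Gja1 had r = 0.400, and Slc1a3 and Aqp4 had r = 0.036. Slc1a2 and Glul, the uptake and the conversion of glutamate, had r = -0.173 when centred on the brain area only and -0.342 when centred on each treatment group as well. The values centred on each treatment group used the labels of all 30 libraries. They were not computed without the hippocampal libraries of rats 3 and 8, which went against those labels. The genes that ranked higher are not named, since their identifiers carry no names here.

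The promoters of the 3 genes that rose in the cortex are shown because those genes were called higher there. The sequences are the 250 bases before the listed start in RefSeq's GRCr8 assembly, which matched all 5 genes, whereas the counts were made on Rnor_5.0. The motifs AP-1 (TGANTCA), STAT (TTCNNNGAA), the CCAAT box (CCAAT) and the NFI half-site (TTGGC, whose opposite strand can overlap a CCAAT box) were searched on both strands, and matches are in capitals. Aqp4 lies at chr18:6798843-6799092 on the minus strand, with a CCAAT box that begins 20 bases before the start. Gja1 lies at chr20:36302314-36302563 on the plus strand, with an AP-1 motif 58 bases before the start. Slc1a3 lies at chr2:59557809-59558058 on the minus strand, with an NFI half-site 84 bases before the start on the opposite strand.
Aqp4: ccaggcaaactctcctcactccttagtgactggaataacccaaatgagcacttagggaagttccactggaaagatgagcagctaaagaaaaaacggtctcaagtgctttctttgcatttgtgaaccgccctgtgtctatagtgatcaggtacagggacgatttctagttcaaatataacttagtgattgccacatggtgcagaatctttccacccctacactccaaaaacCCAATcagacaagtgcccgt
Gja1: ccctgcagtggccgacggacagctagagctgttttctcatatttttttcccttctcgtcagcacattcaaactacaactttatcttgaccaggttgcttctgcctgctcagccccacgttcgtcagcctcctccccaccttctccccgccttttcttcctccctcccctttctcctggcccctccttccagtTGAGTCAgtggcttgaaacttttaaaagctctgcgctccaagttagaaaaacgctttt
Slc1a3: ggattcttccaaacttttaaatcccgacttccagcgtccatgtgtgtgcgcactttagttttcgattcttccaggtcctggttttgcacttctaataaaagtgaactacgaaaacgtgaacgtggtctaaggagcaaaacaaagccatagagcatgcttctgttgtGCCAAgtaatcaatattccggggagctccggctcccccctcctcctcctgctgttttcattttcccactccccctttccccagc

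None of the motifs was shared by these 3 promoters. Over all 27456 windows of the same length, 6.36% held the AP-1 motif, 34.3% a CCAAT box, 40.3% an NFI half-site and 7.52% the STAT motif. Glul held a CCAAT box 74 bases before the start on the opposite strand, Slc1a2 held none of the 4 motifs, and no window of the 5 genes held the STAT motif. A match is a run of letters and was not tested as a binding site.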

How the data were processed

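mRNA of 30 libraries was analysed, from 10 rats and 3 brain areas, grouped by the sample labels. The authors aligned reads to Rnor_5.0 with STAR and deposited counts of reads on Ensembl genes, not normalized, as a table for each brain area. The counting tool and its use of strand are not given in the sources used here. All columns were matched to samples by name, and 0 were left over.

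Counts were analysed in R 4.3.3 with edgeR 4.0.16. In each brain area genes were kept by filterByExpr (minimum count 10, minimum total 15), TMM factors scaled the libraries, and rats with TBI were set against sham-operated rats in a robust quasi-likelihood fit, with p-values adjusted by Benjamini-Hochberg over all genes (threshold 0.05). Interactions and differences between brain areas came from a group-means fit of all libraries. A prior count of 3 was added for log2 CPM. The scripts were tested on simulated data. Alternatives were DESeq2 1.42.0, limma 3.58.1 (voom with sample quality weights), RLE scaling, no filter, a single fit, rats left out and the rat as a block. Some fits were chosen after the counts were seen. These were fits of each pair of areas and of 7 hippocampal libraries that share the tag FC120 in their column names. Fits without scaling factors, of cortex and thalamus without rats 3 and 8, and DESeq2 without rats 3 and 8 were too. So were the interactions, area differences, ratios and correlations without the hippocampal libraries of rats 3 and 8. The other hippocampal edgeR fits that left out more than a single rat were chosen with earlier results of these data known. Leaving out rats 3 and 8 there was chosen in part on the outcome, so that fit was not fixed independently of the counts.

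Although the rule for the 5 genes used no measured value, the genes, lists and tests were chosen with earlier results of these data known. The rule for names was the 5 genes, listed related genes past the threshold and the 3 genes most like each. Of the symbols of the related and marker lists, 0 matched an identifier, so these lists were not analysed here. Libraries are paired by rat, since each animal gave every brain area. Deviations from the group mean had a mean correlation within a rat of 0.0579 between cortex and thalamus, 0.122 between cortex and hippocampus and 0.0384 between thalamus and hippocampus.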

Additional observations from a re-analysis of the deposited data

Results flagged for a closer look

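Of the 30 groups of 5 libraries (5 genes, 3 brain areas, 2 treatments), 3 held a sample far from the others by Dixon's criterion for 5 samples (gap over range above 0.71), which chance gives to about 1 in 20 groups. Glul in the thalamus of rat 7 with TBI was at 2337 CPM, and the nearest rat with TBI was at 1987 CPM (gap over range 0.773). Glul in the hippocampus of rat 9 with TBI was at 685 CPM, below the nearest at 816 CPM (0.834). Gja1 in the cortex of rat 8 with TBI was at 410 CPM, above the nearest at 366 CPM (0.783), and the Gja1 call in the cortex was kept without rat 8.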

How the results depend on the processing

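In the cortex Aqp4 and Gja1 were called under each alternative run, with log2 fold changes of 1.29 to 1.47 and 0.48 to 0.56 when single rats were left out. Slc1a3 was 0.22 to 0.34 and Glul -0.19 to -0.11 in those fits, and without rats 3 and 8 Slc1a3 was 0.25 (edgeR adjusted p = 0.117). Under DESeq2 cortical Glul was -0.17 and called. In the thalamus Aqp4 was 1.14 to 1.46, Gja1 0.33 to 0.50, Slc1a2 -0.070 to 0.17 and Slc1a3 -0.024 to 0.10 with single rats left out, and 0 to 2 of the 5 genes were called, beside 0 to 2421 of all genes. Without rats 3 and 8 thalamic Aqp4 was 1.03 (edgeR adjusted p = 0.167), Slc1a2 was -0.074 and 0 of the 5 genes were called, as were 0 of all genes. A single fit of all areas called 2 of the 5, with Gja1 at 0.40, and 3457 thalamic genes in all, against 934 in the main fit. In the hippocampus Aqp4 was 0.36 (without rat 6) to 0.69, Glul -0.040 to 0.057, Slc1a2 -0.056 to 0.15 and Slc1a3 -0.034 to 0.033 with single rats left out. Aqp4 was the 1 gene of the 5 called there without rats 3 and 8 (0.82 in edgeR and, with adjusted p = 6.50e-05, in DESeq2) and without scaling factors (0.90, edgeR adjusted p = 0.0368). These fits called 263, 513 and 225 genes in all, from 0 in the main fit. Values near 0 changed sign in the hippocampus for Glul (0.030 in the FC120 libraries, 0.016 with no filter, 0.0021 in a single fit), for Slc1a3 (0.017, 0.015 and 0.0019) and, under voom, for Slc1a2 (-0.026). Voom also gave -0.026 for thalamic Slc1a3.

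Without scaling factors the median of all genes moved by 0.22 in the cortex, 0.02 in the thalamus and 0.39 in the hippocampus, where the Aqp4 call at 0.90 stands beside that shift. Cortical Glul was then 0.055 and Slc1a2 0.060, and hippocampal Glul 0.38 and Slc1a3 0.38. The interactions of thalamus against hippocampus, whose median over all genes moved by -0.34, became -0.11 (Gja1), -0.17 (Glul) and -0.33 (Slc1a3), and in sham-operated rats, with medians moved by -0.29 (cortex against thalamus), 0.48 (thalamus against hippocampus) and 0.19 (cortex against hippocampus), Aqp4 became -0.26 in cortex against thalamus and 0.11 in thalamus against hippocampus, Slc1a3 0.23 in thalamus against hippocampus and Gja1 0.17 in cortex against hippocampus, where 1 of the 5 genes stayed called and Slc1a2 was not, at -0.32 (edgeR adjusted p = 0.184). Slc1a3 lost its call in cortex against thalamus (0.091, edgeR adjusted p = 0.652), and Gja1 gained calls there (-0.42, edgeR adjusted p = 0.0360) and in thalamus against hippocampus (0.59, edgeR adjusted p = 0.00340). The same count of 1 was found for cortex against hippocampus without the hippocampal libraries of rats 3, 4, 5 and 8. Those fits called 6021 genes in all without scaling factors and 5413 without these libraries, from 8158.

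With rat as a replicate block, no call of the 5 genes changed, in the interactions or between areas of sham-operated rats (Aqp4 cortex against hippocampus 0.81, edgeR adjusted p = 0.372), and the genes called were 49 for cortex against hippocampus and 31 for thalamus against hippocampus, from 81 and 58. DESeq2 called 1 of the 5 genes, Glul, for cortex against thalamus, and 266, 335 and 345 genes in all, from 105, 81 and 58. With single rats left out, 0 to 1 of the 5 genes were called for thalamus against hippocampus, beside 0 to 1402 of all genes. In those fits Slc1a2 was -0.27 to 0.12 and Slc1a3 -0.037 to 0.10 in that interaction, Aqp4 -0.16 to 0.28 in cortex against thalamus, and in sham-operated rats Gja1 -0.032 to 0.038 in cortex against hippocampus and Aqp4 -0.11 to 0.13 in cortex against thalamus. One fit per pair of areas gave -0.00083 for Slc1a3 in thalamus against hippocampus and -0.014 for Aqp4 in sham cortex against thalamus, which was -0.0030 with no filter and -0.014 without the hippocampal libraries of rats 3, 4, 5 and 8. Sham Gja1 in cortex against hippocampus was 0.013 under DESeq2, 0.012 under RLE, 0.0024 with no filter and 0.0069 without the hippocampal libraries of rats 3 and 8. The cause of these changes was not tested.

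Over all genes, the thalamus had 934 genes called, and 1950 under DESeq2, 2692 under voom, 3457 in a single fit and 0 without rats 3 and 8. The hippocampus had 0, and 41 under DESeq2, 263 without rats 3 and 8 (513 under DESeq2), 82 without rats 3, 4, 5 and 8 and 225 without scaling factors. The cortex had 4436, and 2867 without rats 3 and 8. Between sham cortex and hippocampus 8158 genes were called, 7333 without the hippocampal libraries of rats 3 and 8 and 5413 without those of rats 3, 4, 5 and 8. One fit per pair of areas called 537 interactions for cortex against hippocampus and 0 for thalamus against hippocampus, and without the hippocampal libraries of rats 3 and 8 there were 26 and 0.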
